A study of Mus musculus with 16 samples.

Results

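The 51 genes described here were listed as non-helicase factors that make the 18S rRNA of the small ribosomal subunit in mouse cells. The listed genes were assigned to the small-subunit processome or to the later pre-40S particle. They were chosen by gene name among the 14552 genes of the normalized count table, and DEAD-box helicases were left out. Of the 51 genes, 50 were found under their current symbol and 1, Utp4, under its Ensembl identifier ENSMUSG00000041438, where the table has the older name Cirh1a. All 51 had a mean of at least 10 normalized counts over the libraries and were tested. The libraries came from E14 mouse embryonic stem cells of 1 genotype, given as Ddx10-AID, Tir1: an auxin-inducible degron on Ddx10 together with Tir1, the plant F-box protein that recruits degron-tagged proteins to a ubiquitin ligase when auxin is present. DDX10 is itself a helicase of the small-subunit pathway. All cells, untreated ones included, grew on gelatin with serum, 1000 U/mL leukemia inhibitory factor, CHIR99021 (a GSK3 inhibitor) and PD0325901 (a MEK inhibitor). The 8 groups were untreated cells, cells in 500 µM indole-3-acetic acid (auxin) for 2, 4, 6 or 12 h or for 1 or 2 days, and cells kept in auxin for 2 days and then without it for 2 days, called withdrawal below. Each group had 2 libraries, 16 in all. The labels do not state that paired libraries stem from different cultures, so the p-values cover the spread between libraries only, which may be technical. No untagged cells given auxin were analysed here, so DDX10 loss and auxin itself cannot be told apart.

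Ribosome production begins in the nucleolus, where RNA polymerase I makes a long precursor that holds the 18S rRNA between an external and an internal spacer. The UTP-A and UTP-B complexes, the U3 box C/D snoRNP and many single proteins assemble on the start of this precursor, fold it around U3 RNA and allow cleavage at the ends of 18S rRNA. Most of these proteins then leave, and a smaller set carries the pre-40S particle through export and the last trimming step in the cytoplasm. The libraries measured the mRNAs of these proteins, not rRNA.

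Promoter sequence was matched by symbol to RefSeq gene starts on GRCm38.p6 for 42 of the 51 genes, and 9 had no entry (Tbl3, Wdr36, Utp6, Fbl, Nol6, Fcf1, Dcaf13, Rrp12 and Riok3). One motif was searched on both strands, the E-box CACGTG, a palindrome bound by MYC and related proteins, in windows from 250 bases before to 50 bases after the start. It was present for 12 of the 42 genes (28.6%), against 2349 of all 32851 starts in the table (7.15%) and 1190 of 9825 tested genes with a start (12.1%). Of the 12, the motif lay before the start in Imp4, Aatf, Utp18, Nol11, Rrp7a and Wdr46, and after it in Utp4, Ltv1, Utp20, Pno1, Tsr1 and Wdr43. 4 stretches of 250 bases before the start are printed 5′ to 3′ on the gene's strand with the E-box in capitals. Wdr46, Imp4 and Aatf show the motif near to and far from the start in genes that fell, and Lyar, the gene with the largest fall, has none. They lie at chr17:33940473-33940722 on the plus strand (Wdr46, E-box from position -12), chr1:34439579-34439828 on the plus strand (Imp4, position -121), chr11:84513502-84513751 on the minus strand (Aatf, position -204) and chr5:38220232-38220481 on the plus strand (Lyar).
Wdr46: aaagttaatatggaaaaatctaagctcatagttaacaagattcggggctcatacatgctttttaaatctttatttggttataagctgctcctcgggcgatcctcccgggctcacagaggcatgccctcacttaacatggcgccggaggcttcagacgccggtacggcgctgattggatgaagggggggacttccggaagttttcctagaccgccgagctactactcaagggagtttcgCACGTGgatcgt
Imp4: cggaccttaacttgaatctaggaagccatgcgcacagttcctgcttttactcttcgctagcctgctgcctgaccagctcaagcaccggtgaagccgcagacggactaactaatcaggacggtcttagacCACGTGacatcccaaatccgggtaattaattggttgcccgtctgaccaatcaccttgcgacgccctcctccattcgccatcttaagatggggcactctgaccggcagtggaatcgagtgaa
Aatf: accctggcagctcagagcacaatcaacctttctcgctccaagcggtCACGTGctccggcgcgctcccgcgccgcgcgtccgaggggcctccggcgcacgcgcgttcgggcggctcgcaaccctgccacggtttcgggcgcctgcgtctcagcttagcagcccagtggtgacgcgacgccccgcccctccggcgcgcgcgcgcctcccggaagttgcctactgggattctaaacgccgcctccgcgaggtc
Lyar: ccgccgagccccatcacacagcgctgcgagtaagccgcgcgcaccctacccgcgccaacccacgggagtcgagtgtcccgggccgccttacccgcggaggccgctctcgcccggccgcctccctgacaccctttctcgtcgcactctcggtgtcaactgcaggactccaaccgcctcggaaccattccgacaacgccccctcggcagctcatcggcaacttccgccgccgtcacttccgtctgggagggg
Calls, defined below, were spread over genes with and without the E-box. From 2 h to 12 h of auxin 10 of 12 and 23 of 30 were called lower (13.7% of all tested genes). At 2 days against untreated 8 of 12 and 24 of 30 were (23.8%). From 2 days to withdrawal 7 of 12 and 21 of 30 were called higher (22.2%), and 1 and 0 lower (19.1%). A match of letters describes the sequence and does not show binding.

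A library held about 13.5 M to 17.5 M reads in genes, estimated from the smallest steps of its values, and its normalized total was 14.9 M to 16.9 M. Summed values of 6 embryonic stem cell markers were 73715 to 106852 in every library, while 2 fibroblast markers summed to 40.7 to 108. Of the stem cell markers, Pou5f1 had 23170.5 and 22339 untreated and 13539 and 13547 at 12 h. Dppa5a had 21243 and 23631 and then 13465 and 13541, and Zfp42 11173 and 12106 and then 8313 and 8322. Nanog had 15332 and 14325 and then 16435 and 15977, and Sox2 and Esrrb overlapped between untreated and 12 h. Of the fibroblast markers, Thy1 had 50.99 and 83.5 untreated and 13.8 and 7.30 at 1 day. Col1a1 had 56.97 and 23.3 and then 69.5 and 33.4. The sum over 3 primitive endoderm markers was 28.6 and 29.5 in the untreated libraries, 72.5 and 69.2 at 2 days and 35.3 and 23.3 after withdrawal, that over 2 mesoderm markers 301 and 503, 269 and 231 and 444 and 487, and that over 3 neural markers 115 and 86.5, 259.5 and 275 and 136 and 122. Of the neural markers Neurod1 had 21.1 and 23.4 untreated and 168 and 190 at 2 days, Sox1 83.0 and 42.6 and then 80.6 and 83.0, and Pax6 11.3 and 20.5 and then 10.96 and 2.69. The part of such cells in the results was not tested. In bulk libraries fewer cells of a type and less RNA per cell cannot be told apart. Ddx10 mRNA was present in all libraries at 889 to 2046 normalized counts, which does not measure the tagged protein; it was 0.40 (log2) above untreated at 2 h, -0.53 at 2 days and 0.64 from 2 days to withdrawal. The 2 untreated libraries differed more than other pairs, with 1090 genes at least 2-fold apart against 342 to 774 in the other groups. The 8 libraries of 2 h to 12 h stood apart from the other 8: all 8 lay above all other libraries for 3.17% of tested genes and below for 4.43%. Of the 51 factors none lay above, and Fbl and Imp3 (3.92%) lay below, counts near the shares over all tested genes. For this reason comparisons within the 2 h to 12 h libraries are given beside those with untreated cells. A gene was called when limma's moderated test on log2(value + 1), fitted over all 16 libraries, gave a Benjamini-Hochberg adjusted p below 0.05 over 13355 tested genes, and every log2 change below is on that scale.

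Most of the small-subunit factors were called lower after 2 days of auxin and called higher again after withdrawal. At 2 days 38 of 51 were lower than in untreated cells, 13 were not called and none was higher, while 23.8% of all tested genes were called lower and 21.0% higher. Scaled to equal totals, 24 of 51 were lower and 4 higher, against 16.2% and 29.7% of all genes. Their median log2 change was -0.36, against -0.01 over all tested genes. From 2 h to 12 h of auxin, 36 were called lower and none higher (13.7% and 10.9% of all genes), with a median of -0.36. From 2 days to withdrawal 34 were called higher and 1, Utp20, lower (22.2% and 19.1% of all genes), with a median of 0.33. Lyar fell furthest by 2 days, to 41.4% of its untreated mean, and Bms1 next, to 57.6%. Together the 51 mRNAs made up 0.862% and 0.883% of the normalized total in the untreated libraries, 0.760% and 0.773% at 2 days, and 0.828% and 0.855% after withdrawal.

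**Figure D1:**
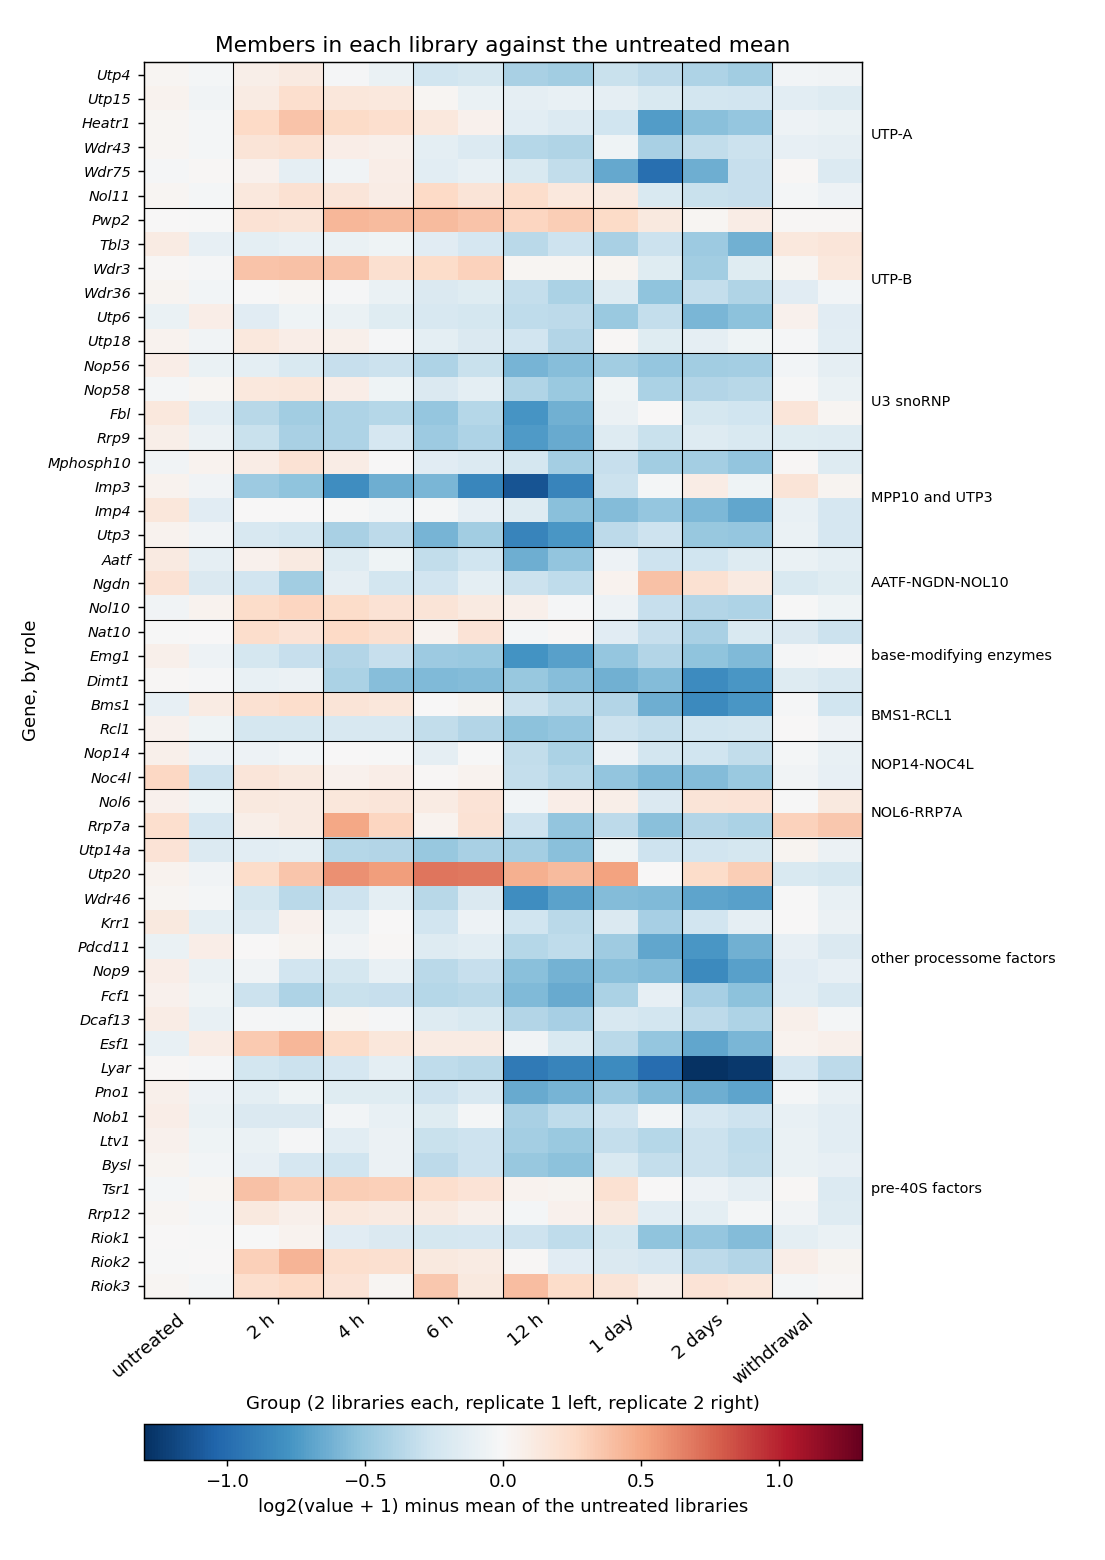
Each row is 1 of the 51 genes, grouped by role, and each column 1 of the 16 libraries; colour gives log2(value + 1) minus the mean of the 2 untreated libraries. Blue cells gather at 12 h, 1 day and 2 days and fade after withdrawal, while Utp20 and Pwp2 are red from 4 h to 12 h and Imp3 and Fbl are blue from 2 h to 12 h.

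UTP-A is the complex that binds the 5′ external spacer first. All 6 of its genes were called lower at 2 days (median -0.36), as were 23.8% of all tested genes. Utp4, a WD-repeat subunit, had normalized counts of 4143 and 3979.5 untreated, 4266 and 4393 with 2 h of auxin, 4004 and 3825 with 4 h, 3388 and 3458 with 6 h and 3034 and 2962 with 12 h. For Utp4 the 1-day pair was 3329 and 3208, the 2-day pair 3067 and 2970.1 and the withdrawal pair 3950.1 and 3947. Its 2-day libraries lay below both untreated libraries with no overlap, a change of -0.43 (SE 0.06, limma adjusted p = 5.4e-05). Within the early libraries Utp4 had already fallen at 6 h against 2 h, with a change of -0.34 (SE 0.06, limma adjusted p = 0.0029). Heatr1, the large scaffold subunit, had normalized counts of 4996 and 4822 untreated, 5886 and 6344 with 2 h of auxin, 5820.2 and 5697 with 4 h, 5414 and 5109 with 6 h and 4451 and 4343 with 12 h. For Heatr1 the 1-day pair was 4107 and 2961, the 2-day pair 3372 and 3457 and the withdrawal pair 4699 and 4639. The 2 h and 4 h libraries of Heatr1 were its highest and those of 2 days, with the second 1-day library, its lowest. The change of Heatr1 at 2 days was -0.52 (SE 0.11, limma adjusted p = 0.0015). Its change from 2 h to 12 h was -0.47 (SE 0.11, limma adjusted p = 0.0064), a call lost without the second 2 h library (-0.42, limma adjusted p = 0.062). Wdr75, another WD-repeat subunit, had its lowest values at 1 day, -0.82 (SE 0.12, limma adjusted p = 0.00018), with 2036 and 1630.4 normalized counts against 3188 and 3257 in the untreated libraries. Utp15 (1515 to 2086 over the 16 libraries), Wdr43 (3878 to 5928) and Nol11 (2194 to 3233) changed by -0.24, -0.30 and -0.30 at 2 days. The 2-day call of Wdr75, -0.47 (SE 0.12, limma adjusted p = 0.0066), was lost without the first 2-day library (-0.30, limma adjusted p = 0.098). The calls of Utp15, Wdr43 and Nol11 rested on single libraries as well. That of Utp15 was lost without the first untreated library (-0.20, limma adjusted p = 0.069), the first 2-day library (-0.25, limma adjusted p = 0.055) or the second 2-day library (-0.24, limma adjusted p = 0.064). That of Wdr43 was lost without the first untreated library (-0.28, limma adjusted p = 0.053) or the first 2-day library (-0.28, limma adjusted p = 0.075). That of Nol11 was lost without the first untreated library (-0.27, limma adjusted p = 0.062), the first 2-day library (-0.30, limma adjusted p = 0.059) or the second 2-day library (-0.29, limma adjusted p = 0.066).

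UTP-B joins next and contacts U3 RNA, and 4 of its 6 genes were called lower at 2 days (23.8% of all tested genes). Tbl3, a WD-repeat subunit, had normalized counts of 2164 and 1874 untreated, 1845 and 1880.1 with 2 h of auxin, 1893 and 1931 with 4 h, 1820.5 and 1729.6 with 6 h and 1581 and 1669.7 with 12 h. For Tbl3 the 1-day pair was 1502 and 1658, the 2-day pair 1455 and 1302 and the withdrawal pair 2222 and 2245. Its 2 highest libraries were those of withdrawal, and it changed by -0.55 (SE 0.09, limma adjusted p = 0.00017) at 2 days and 0.70 (SE 0.09, limma adjusted p = 2.5e-05) from 2 days to withdrawal. Of the Tbl3 exons 37.3% overlap exons of Noxo1 on the opposite strand, and whether counting used strand is not given in the sources used here. Pwp2, also a WD-repeat subunit, went the other way, with normalized counts of 1945 and 1927 untreated, 2203 and 2178 with 2 h of auxin, 2618 and 2578 with 4 h, 2583 and 2495 with 6 h and 2354 and 2423 with 12 h. For Pwp2 the 1-day pair was 2304 and 2120.0, the 2-day pair 1974 and 2077 and the withdrawal pair 1952 and 1962. All auxin libraries of Pwp2 were above both untreated libraries. It was called higher at 4 h, 0.42 (SE 0.06, limma adjusted p = 0.00078), at 6 h (0.39) and at 12 h (0.30). At 2 days the difference was 0.06 (SE 0.06, limma adjusted p = 0.44). The call at 1 day, 0.19 (SE 0.06, limma adjusted p = 0.036), was lost without the first untreated library (0.20, limma adjusted p = 0.062), the second untreated library (0.18, limma adjusted p = 0.092) or the first 1-day library (0.13, limma adjusted p = 0.14). Wdr3, a WD-repeat subunit as well, had normalized counts of 2089 and 2046 untreated, 2666 and 2695 with 2 h of auxin, 2671 and 2387 with 4 h, 2443 and 2539.9 with 6 h and 2101 and 2103 with 12 h. For Wdr3 the 1-day pair was 2125 and 1849, the 2-day pair 1509 and 1857 and the withdrawal pair 2109 and 2272. Its 2 h libraries were 2 of the 3 highest and the first 2-day library the lowest. Its calls at 2 h, 0.37 (SE 0.10, limma adjusted p = 0.022), and at 2 days, -0.30 (SE 0.10, limma adjusted p = 0.022), had opposite signs. The 2 h call was lost without the first untreated library (0.39, limma adjusted p = 0.052), the second untreated library (0.36, limma adjusted p = 0.06), the first 2 h library (0.38, limma adjusted p = 0.088) or the second 2 h library (0.37, limma adjusted p = 0.13), and the 2-day call without the first untreated library (-0.29, limma adjusted p = 0.071), the second untreated library (-0.32, limma adjusted p = 0.054) or the first 2-day library (-0.15, limma adjusted p = 0.27). Utp6, a subunit with HAT repeats, had a change of -0.56 (SE 0.09, limma adjusted p = 0.00013) at 2 days. Wdr36 (2154 to 3168 over the 16 libraries) changed by -0.35 at 2 days, a call lost without the second 2-day library (-0.31, limma adjusted p = 0.066). Utp18 (1227 to 1747) was called lower from 2 h to 12 h, -0.42 (SE 0.08, limma adjusted p = 0.0026), and had -0.09 at 2 days (limma adjusted p = 0.43).

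The U3 box C/D snoRNP pairs with the precursor; Nop56, Nop58 and the methyltransferase fibrillarin (Fbl) are its core proteins and Rrp9 is specific to U3. All 4 were called lower from 2 h to 12 h (median -0.38) and 3 at 2 days (13.7% and 23.8% of all tested genes). Nop56 had normalized counts of 14987 and 13232 untreated, 12916 and 12279 with 2 h of auxin, 11435 and 11606 with 4 h, 10632 and 11520.4 with 6 h and 9256 and 9589 with 12 h. For Nop56 the 1-day pair was 10283 and 9973, the 2-day pair 10306 and 10369.9 and the withdrawal pair 13784 and 12991. All its libraries from 12 h to 2 days lay below all untreated and withdrawal libraries, and it changed by -0.45 (SE 0.07, limma adjusted p = 0.00014) at 2 days and 0.37 (SE 0.07, limma adjusted p = 0.00067) from 2 days to withdrawal. Fbl had normalized counts of 6106 and 5041 untreated, 4314 and 4069.8 with 2 h of auxin, 4204 and 4286 with 4 h, 3903 and 4284 with 6 h and 3265 and 3593 with 12 h. For Fbl the 1-day pair was 5266 and 5587, the 2-day pair 4738 and 4628 and the withdrawal pair 6172 and 5639. The 8 libraries of 2 h to 12 h were the 8 lowest for Fbl, and it changed by -0.70 (SE 0.09, limma adjusted p = 5.9e-05) at 12 h and -0.03 (SE 0.09, limma adjusted p = 0.81) at 1 day. The small call of Fbl at 2 days, -0.24 (SE 0.09, limma adjusted p = 0.04), was lost without the first untreated library (-0.11, limma adjusted p = 0.35), the first 2-day library (-0.26, limma adjusted p = 0.099) or the second 2-day library (-0.23, limma adjusted p = 0.15). From 2 h to 12 h its change of -0.29 lost its call without the first 2 h library (-0.25, limma adjusted p = 0.18), the second 2 h library (-0.33, limma adjusted p = 0.074), the first 12 h library (-0.22, limma adjusted p = 0.21) or the second 12 h library (-0.36, limma adjusted p = 0.05). Nop58 (5679 to 8791 over the 16 libraries) changed by -0.58 (SE 0.09, limma adjusted p = 0.00061) from 2 h to 12 h and by -0.37 (SE 0.09, limma adjusted p = 0.0056) at 2 days. Rrp9 (1562 to 2757) was called lower at each early time, by -0.36 at 2 h and -0.70 at 12 h, and not at 2 days (-0.18, limma adjusted p = 0.09). Its calls at 4 h against untreated and from 2 h to 12 h did not hold without each library in turn. The 2 h call of Rrp9 was lost without the first untreated library (-0.28, limma adjusted p = 0.072) or the second 2 h library (-0.29, limma adjusted p = 0.14).

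MPP10 (Mphosph10), IMP3 and IMP4 form a complex that steadies the pairing of U3 with the precursor, and UTP3 is a Sas10-domain protein of the same particle. All 4 genes were called lower from 2 h to 12 h (median -0.48), as were 13.7% of all tested genes. Utp3 had normalized counts of 2430.2 and 2266 untreated, 2027 and 1990.2 with 2 h of auxin, 1752 and 1851 with 4 h, 1542 and 1713 with 6 h and 1298 and 1386 with 12 h. For Utp3 the 1-day pair was 1849 and 1944, the 2-day pair 1672 and 1659 and the withdrawal pair 2208 and 2010.5. Its lowest libraries were those of 12 h, and it changed by -0.58 (SE 0.08, limma adjusted p = 0.00016) from 2 h to 12 h and by -0.49 (SE 0.08, limma adjusted p = 0.0002) at 2 days. Imp3 had normalized counts of 691 and 651 untreated, 482 and 467 with 2 h of auxin, 382 and 430.2 with 4 h, 445 and 373 with 6 h and 307 and 369 with 12 h. For Imp3 the 1-day pair was 552 and 658, the 2-day pair 717 and 644 and the withdrawal pair 756 and 689. Here the 8 libraries of 2 h to 12 h were the lowest and those of 2 days overlapped the untreated ones. The change was -0.99 (SE 0.13, limma adjusted p = 7.2e-05) at 12 h and 0.02 (SE 0.13, limma adjusted p = 0.92) at 2 days. Its further fall from 2 h to 12 h, -0.49 (SE 0.13, limma adjusted p = 0.014), was lost without the first 2 h library (-0.47, limma adjusted p = 0.085), the second 2 h library (-0.52, limma adjusted p = 0.061) or the first 12 h library (-0.36, limma adjusted p = 0.15). Mphosph10 (1359 to 2221) and Imp4 (1001 to 1769) were called lower at 2 days as well, with -0.48 (SE 0.09, limma adjusted p = 0.00093) and -0.63 (SE 0.12, limma adjusted p = 0.00065). The 12 h mean of Mphosph10 was 72.0% of its 2 h mean, and its 2-day mean was 71.7% of untreated. For Imp4 the change from 2 h to 12 h was -0.36, a call lost without the first 2 h library (-0.36, limma adjusted p = 0.14), the second 2 h library (-0.36, limma adjusted p = 0.14) or the second 12 h library (-0.17, limma adjusted p = 0.39).

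AATF, NGDN and NOL10 form a nucleolar complex needed for early 18S processing, and the 3 genes did not move together. Aatf had normalized counts of 1099 and 928 untreated, 1047 and 1098 with 2 h of auxin, 901 and 972 with 4 h, 811 and 845 with 6 h and 648 and 709 with 12 h. For Aatf the 1-day pair was 966 and 836, the 2-day pair 845 and 897 and the withdrawal pair 952 and 926. Its 12 h libraries were the lowest of all 16. It changed by -0.66 (SE 0.10, limma adjusted p = 0.00042) from 2 h to 12 h, the largest fall of any of the 51 genes in that comparison, and by -0.21 (SE 0.10, limma adjusted p = 0.1) at 2 days. Nol10 had normalized counts of 1730.3 and 1849 untreated, 2103 and 2175 with 2 h of auxin, 2109.5 and 2038 with 4 h, 2007 and 1940.1 with 6 h and 1879 and 1772 with 12 h. For Nol10 the 1-day pair was 1712 and 1454, the 2-day pair 1378 and 1350.3 and the withdrawal pair 1785 and 1724. For Nol10 the 2-day libraries were the lowest, -0.39 (SE 0.08, limma adjusted p = 0.0015) against untreated, and the 2 h and 4 h libraries were the 4 highest. Ngdn (449.6 to 803 over the 16 libraries) was called in no comparison, and its 2 untreated libraries were 700.0 and 541.

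Among the enzymes that modify 18S rRNA bases, NAT10 acetylates cytidines, EMG1 methylates a pseudouridine and DIMT1 dimethylates adenines near the 3′ end. All 3 genes were called lower at 2 days (23.8% of all tested genes), with a median of -0.55. Dimt1 had normalized counts of 907 and 893 untreated, 841 and 855 with 2 h of auxin, 676 and 611 with 4 h, 603 and 609.9 with 6 h and 641 and 614 with 12 h. For Dimt1 the 1-day pair was 585 and 609, the 2-day pair 512 and 531 and the withdrawal pair 801 and 778. The step for Dimt1 came between 2 h and 4 h, -0.40 (SE 0.08, limma adjusted p = 0.022), the only one of the 51 genes called in that comparison (0.681% of all genes were lower there and 1.77% higher). That early call was lost without the first 2 h library (-0.41, limma adjusted p = 0.13), the second 2 h library (-0.39, limma adjusted p = 0.19), the first 4 h library (-0.47, limma adjusted p = 0.055) or the second 4 h library (-0.33, limma adjusted p = 0.26). At 2 days the change of Dimt1 was -0.79 (SE 0.08, limma adjusted p = 5.9e-06). Of its exons 31.9% overlap Kif2a on the opposite strand. Emg1 had normalized counts of 3040.0 and 2773 untreated, 2479 and 2359 with 2 h of auxin, 2228 and 2351 with 4 h, 2091 and 2083 with 6 h and 1691 and 1786 with 12 h. For Emg1 the 1-day pair was 2049 and 2237, the 2-day pair 2018 and 1946 and the withdrawal pair 2871 and 2919. Emg1 was lowest at 12 h, -0.48 (SE 0.07, limma adjusted p = 0.00037) against 2 h, and its withdrawal libraries lay between the 2 untreated ones, 0.55 (SE 0.07, limma adjusted p = 4.8e-05) above 2 days. Nat10 (1982 to 3192) was -0.31 (SE 0.08, limma adjusted p = 0.0078) at 2 days, a call lost without the first 2-day library (-0.20, limma adjusted p = 0.11), and its change from 2 days to withdrawal was 0.08 (SE 0.08, limma adjusted p = 0.48).

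BMS1 is a GTPase that acts with RCL1 at the cleavage site before 18S rRNA. Both genes were called lower from 2 h to 12 h and at 2 days (13.7% and 23.8% of all tested genes). Bms1 had normalized counts of 3959 and 4613 untreated, 4897 and 5006 with 2 h of auxin, 4797 and 4745 with 4 h, 4282 and 4392 with 6 h and 3516 and 3348 with 12 h. For Bms1 the 1-day pair was 3288 and 2749.8, the 2-day pair 2401 and 2533 and the withdrawal pair 4237 and 3563. The 2 h and 4 h libraries of Bms1 were its highest and the 2-day libraries its lowest, with -0.79 (SE 0.10, limma adjusted p = 2.5e-05) at 2 days and 0.66 (SE 0.10, limma adjusted p = 0.00015) from 2 days to withdrawal. Rcl1 had normalized counts of 2232 and 2078 untreated, 1839 and 1843 with 2 h of auxin, 1864 and 1859.9 with 4 h, 1731 and 1653 with 6 h and 1493 and 1521 with 12 h. For Rcl1 the 1-day pair was 1776 and 1733, the 2-day pair 1796 and 1831 and the withdrawal pair 2161 and 2062. Its 12 h libraries were the lowest, -0.51 (SE 0.07, limma adjusted p = 5.3e-05) against untreated, and at 2 days it was -0.25 (SE 0.07, limma adjusted p = 0.0075). NOP14 and NOC4L bind one another in the processome. Nop14 had normalized counts of 3145 and 2869 untreated, 2861 and 2921 with 2 h of auxin, 3013 and 2999.6 with 4 h, 2775 and 2994 with 6 h and 2407 and 2251 with 12 h. For Nop14 the 1-day pair was 2868 and 2544, the 2-day pair 2518 and 2410.0 and the withdrawal pair 2957 and 2811. The lowest Nop14 libraries were those of 12 h, and the change at 2 days was -0.29 (SE 0.08, limma adjusted p = 0.0083), a call lost without the first untreated library (-0.22, limma adjusted p = 0.059) or the second 2-day library (-0.25, limma adjusted p = 0.064). Noc4l had normalized counts of 2422 and 1668 untreated, 2249 and 2197 with 2 h of auxin, 2086 and 2133 with 4 h, 2036 and 2082 with 6 h and 1625 and 1559.7 with 12 h. For Noc4l the 1-day pair was 1405 and 1340.1, the 2-day pair 1363 and 1435 and the withdrawal pair 1944 and 1868. The untreated libraries of Noc4l differed from each other by more than its change at 2 days, -0.52 (SE 0.12, limma adjusted p = 0.0034), yet all 1-day and 2-day libraries were below both; without the first untreated library the change was -0.25 (limma adjusted p = 0.017). NOL6 and RRP7A belong to the UTP-C group. Nol6 had normalized counts of 4249.5 and 3919 untreated, 4449 and 4438 with 2 h of auxin, 4535 and 4548 with 4 h, 4400.2 and 4603 with 6 h and 3979 and 4347 with 12 h. For Nol6 the 1-day pair was 4292 and 3577, the 2-day pair 4579.8 and 4607 and the withdrawal pair 4053 and 4459.9. Nol6 was called in no comparison, and its change at 2 days was 0.17 (SE 0.08, limma adjusted p = 0.12). Rrp7a had normalized counts of 1652 and 1217 untreated, 1499 and 1536 with 2 h of auxin, 2008 and 1723 with 4 h, 1459 and 1619.5 with 6 h and 1179 and 997 with 12 h. For Rrp7a the 1-day pair was 1119.7 and 969.6, the 2-day pair 1092 and 1065 and the withdrawal pair 1752 and 1803. Withdrawal gave 2 of the 3 highest Rrp7a libraries, 0.72 (SE 0.13, limma adjusted p = 0.00073) above 2 days. Its call against untreated at 2 days, -0.39 (SE 0.13, limma adjusted p = 0.027), was lost without the first untreated library (-0.17, limma adjusted p = 0.29), the first 2-day library (-0.41, limma adjusted p = 0.08) or the second 2-day library (-0.38, limma adjusted p = 0.11).

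Of the 10 other factors, listed under no complex, 7 were called lower at 2 days (median -0.56), as were 23.8% of all tested genes. Lyar, a zinc-finger nucleolar protein, had normalized counts of 3716 and 3641 untreated, 3123 and 3025 with 2 h of auxin, 3165 and 3378 with 4 h, 2927 and 2876 with 6 h and 1949 and 2023 with 12 h. For Lyar the 1-day pair was 2085 and 1854, the 2-day pair 1504 and 1545 and the withdrawal pair 3167 and 2906. The groups of Lyar did not overlap between untreated, 2 h, 12 h and 2 days, and its change at 2 days, -1.27 (SE 0.07, limma adjusted p = 3.8e-08), was the largest of the 51 genes. It was also the only one called between 1 day and 2 days, -0.37 (SE 0.07, limma adjusted p = 0.011) (4.07% of all genes were lower there and 1.57% higher), a comparison added after the values were seen. That call was lost without the first 2-day library (-0.35, limma adjusted p = 0.084) or the second 2-day library (-0.39, limma adjusted p = 0.065). Esf1, a nucleolar protein of the 18S pathway, had normalized counts of 1394 and 1590.1 untreated, 1889.9 and 2003 with 2 h of auxin, 1757 and 1648 with 4 h, 1599 and 1604 with 6 h and 1447 and 1299 with 12 h. For Esf1 the 1-day pair was 1169 and 1054, the 2-day pair 929.8 and 987 and the withdrawal pair 1542 and 1559. The 2 h libraries were the highest of Esf1 and the 2-day libraries the lowest, -0.64 (SE 0.09, limma adjusted p = 6.2e-05) against untreated and 0.69 (SE 0.09, limma adjusted p = 3.3e-05) from 2 days to withdrawal. Utp20, the very large HEAT-repeat factor, rose instead, with normalized counts of 5738 and 5407 untreated, 6578 and 7141 with 2 h of auxin, 8413 and 8112 with 4 h, 9034 and 8958 with 6 h and 7669 and 7409 with 12 h. For Utp20 the 1-day pair was 7997 and 5595, the 2-day pair 6575 and 6963 and the withdrawal pair 4856 and 4762. Its 6 h libraries were the highest and its withdrawal libraries the lowest of the 16, with 0.69 (SE 0.12, limma adjusted p = 0.00092) at 6 h and -0.49 (SE 0.12, limma adjusted p = 0.0041) from 2 days to withdrawal. The 12 h call of Utp20, 0.44 (SE 0.12, limma adjusted p = 0.011), was lost without the second untreated library (0.39, limma adjusted p = 0.052) or the first 12 h library (0.41, limma adjusted p = 0.07). Nop9, a Pumilio-repeat protein with exons that overlap Cideb by 29.9%, was -0.77 (SE 0.10, limma adjusted p = 2.6e-05) at 2 days. Wdr46, a WD-repeat protein, was -0.70 (SE 0.08, limma adjusted p = 1.4e-05). Pdcd11, an S1-domain scaffold, was -0.69 (SE 0.08, limma adjusted p = 1.4e-05). Fcf1, a PIN-domain protein, was -0.48 (SE 0.10, limma adjusted p = 0.0014) and Dcaf13, a WD-repeat protein, -0.37 (SE 0.08, limma adjusted p = 0.0016). Utp14a, an activator of the helicase DHX37, was called at 12 h against untreated, -0.49 (SE 0.10, limma adjusted p = 0.0026), and not at 2 days (-0.24, limma adjusted p = 0.076). It has a near copy, Utp14b, and how reads were divided between them is uncertain. Krr1, a KH-domain protein, was called in no comparison, with -0.19 (SE 0.11, limma adjusted p = 0.2) at 2 days.

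The 9 pre-40S factors act last, and 6 were called lower at 2 days (23.8% of all tested genes). Pno1, the RNA-binding partner that covers the 3′ end of 18S rRNA until NOB1 cuts it, had normalized counts of 2939 and 2669 untreated, 2569 and 2690.0 with 2 h of auxin, 2509.7 and 2506 with 4 h, 2317 and 2422 with 6 h and 1775 and 1838 with 12 h. For Pno1 the 1-day pair was 2012 and 1888, the 2-day pair 1799 and 1746 and the withdrawal pair 2744 and 2628. Its untreated, 2 h and withdrawal libraries lay above all libraries of 12 h to 2 days, and it changed by -0.66 (SE 0.07, limma adjusted p = 5.6e-06) at 2 days, -0.54 (SE 0.07, limma adjusted p = 0.00011) from 2 h to 12 h and 0.60 (SE 0.07, limma adjusted p = 1.6e-05) from 2 days to withdrawal. Riok2, an atypical kinase of the late particle, had normalized counts of 1874 and 1889 untreated, 2332 and 2559 with 2 h of auxin, 2189.7 and 2170.0 with 4 h, 2050.2 and 2029 with 6 h and 1904 and 1697 with 12 h. For Riok2 the 1-day pair was 1649 and 1614, the 2-day pair 1481 and 1443 and the withdrawal pair 1994 and 1932. The 2 h libraries of Riok2 were its highest and the 2-day libraries its lowest, -0.36 (SE 0.07, limma adjusted p = 0.0012) against untreated. Nob1, the nuclease itself, was -0.24 (SE 0.09, limma adjusted p = 0.036) at 2 days, and this call was lost without the first untreated library (-0.16, limma adjusted p = 0.22), the first 2-day library (-0.27, limma adjusted p = 0.084) or the second 2-day library (-0.22, limma adjusted p = 0.15). Ltv1, an assembly factor that leaves in the cytoplasm, was -0.30 (SE 0.07, limma adjusted p = 0.003). Bysl, which stays from the processome to the pre-40S particle, was -0.30 (SE 0.08, limma adjusted p = 0.0064), and the kinase Riok1 -0.53 (SE 0.09, limma adjusted p = 0.00037). Tsr1, a GTPase-like factor with 32.3% of its exons over Srr on the opposite strand, was called higher at 2 h, 0.35 (SE 0.08, limma adjusted p = 0.0095), a call lost without the first 2 h library (0.32, limma adjusted p = 0.072) or the second 2 h library (0.38, limma adjusted p = 0.056). Riok3, the third kinase of the family, was higher at 12 h, 0.32 (SE 0.09, limma adjusted p = 0.013), a call lost without the second untreated library (0.29, limma adjusted p = 0.052) or the first 12 h library (0.24, limma adjusted p = 0.14). Rrp12, a HEAT-repeat export factor, was called in no comparison, with -0.08 (SE 0.09, limma adjusted p = 0.48) at 2 days.

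**Figure D2:**
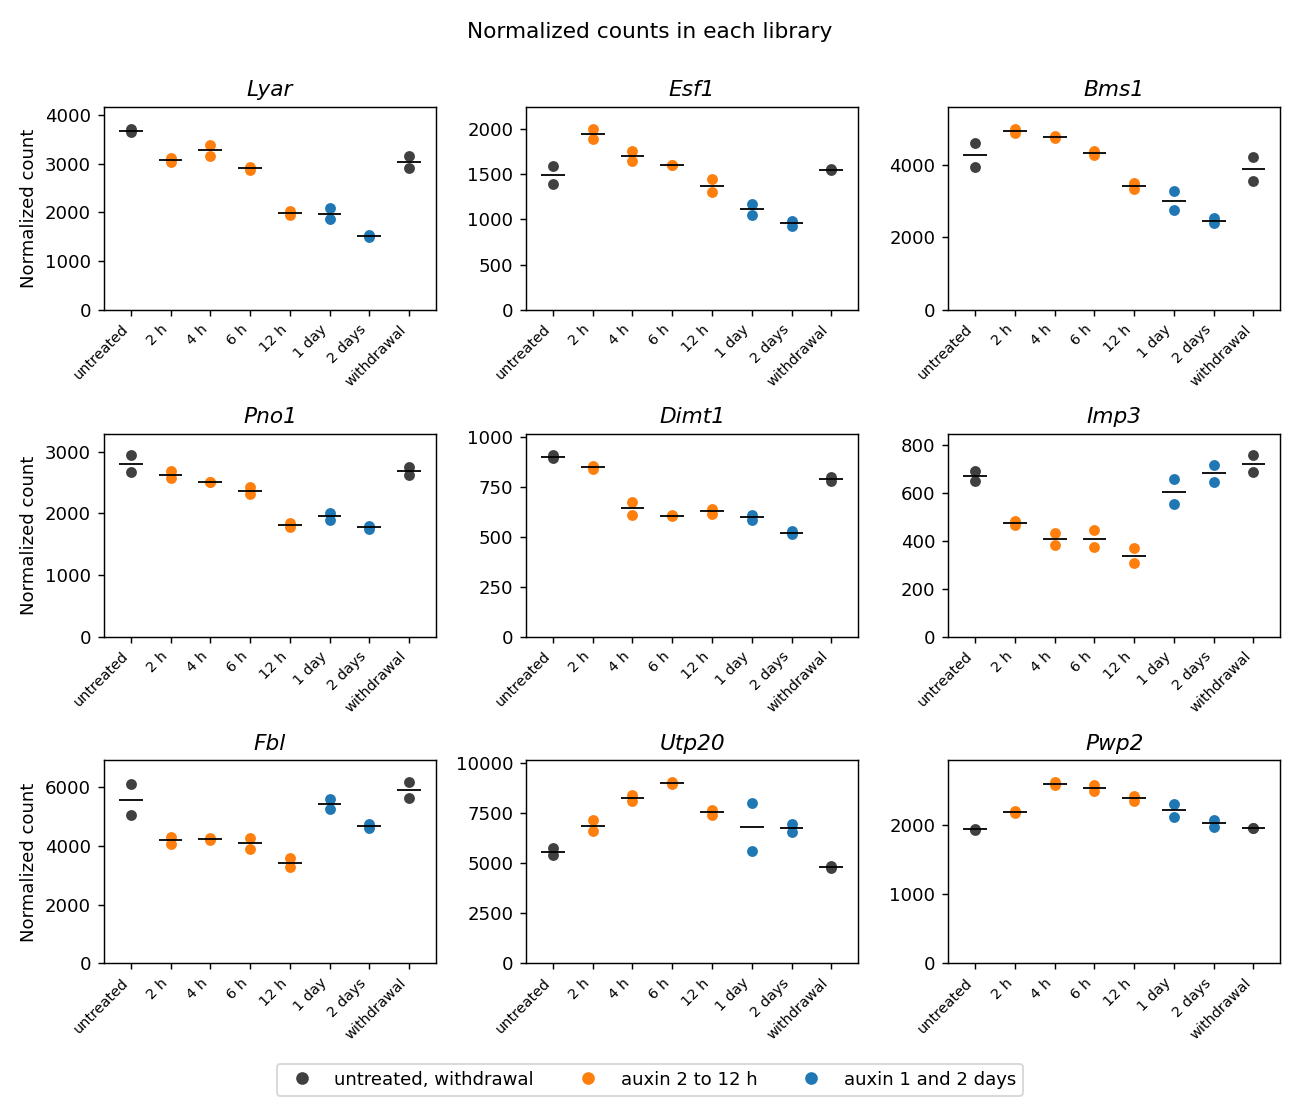
Normalized counts (vertical axes, from 0) of 9 genes in each of the 16 libraries, by group along the horizontal axes; points are libraries and bars are group means. Lyar, Esf1, Bms1, Pno1 and Dimt1 have their lowest mean at 2 days and are higher again after withdrawal, Imp3 and Fbl are lowest from 2 h to 12 h, and Utp20 and Pwp2 peak at 4 h or 6 h.

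The comparison of 12 h with 2 h rests on libraries of the same set of 8, and the 12 h libraries lay below the 2 h libraries with no overlap for 46 of the 51 genes (90.2%, against 36.3% of all tested genes). At 4 h against 2 h 1 gene was called lower, and at 6 h 6 were (3.35% of all genes lower, 4.45% higher): Dimt1 -0.48, Aatf -0.37, Utp4 -0.34, Wdr43 -0.34, Utp3 -0.31 and Riok2 -0.26. Of these 6 calls, those of Dimt1 and Utp4 held without each library in turn, and the other 4 were each lost without any 1 of the 4 libraries, with limma adjusted p of 0.059 to 0.34. Fitted on the 8 libraries of 2 h to 12 h alone, 20 were called lower and 2 higher at 6 h (10% and 8.72% of all genes in that fit), and 43 lower and 1 higher at 12 h (21.2% and 16.2%). The largest falls at 12 h against 2 h were those of Aatf, Lyar -0.63, Utp3 -0.58 and Nop58 -0.58. Of the 36 calls at 12 h, 20 held without each of the 4 libraries in turn, and without the first 2 h library 23 genes were called. Scaled to equal totals, which moved the median of all genes from -0.02 to 0.14 in this comparison, 20 were called lower and 1 higher (6.36% and 19.0% of all genes).

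The group means compared at 2 days against untreated come from none of the libraries of 12 h against 2 h. The comparisons are not separate, since each gene's spread was pooled over all 16 libraries. In both, the later libraries had the lower normalized totals. The 2-day libraries lay below both untreated libraries for 44 of the 51 genes (86.3%, against 36.5% of all tested genes). The largest called changes were those of Lyar, Bms1, Dimt1 and Nop9, and 27 of the 38 calls held without each library in turn. Of the genes called lower, 30 were called lower in both comparisons, 83.3% of the 36 and 78.9% of the 38; over all tested genes 1262 were (9.45% of those tested), 69.0% of 1829 and 39.7% of 3179. Aatf, Imp3, Rrp9, Tsr1, Utp14a and Utp18 were called only in the first, and Fcf1, Nat10, Nob1, Nol10, Nol11, Tbl3, Utp6 and Wdr75 only in the second. The difference between the comparisons was not tested for them. Scaling to equal totals moved the median of all genes to 0.15, with the 24 lower and 4 higher calls given above, and scaling by upper quartiles gave 35 lower and 3 higher (20.4% and 24.1% of all genes). The median of the 51 minus that of all genes was -0.35, a difference that a rescaling of libraries leaves almost as it was by construction.

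**Figure D3:**
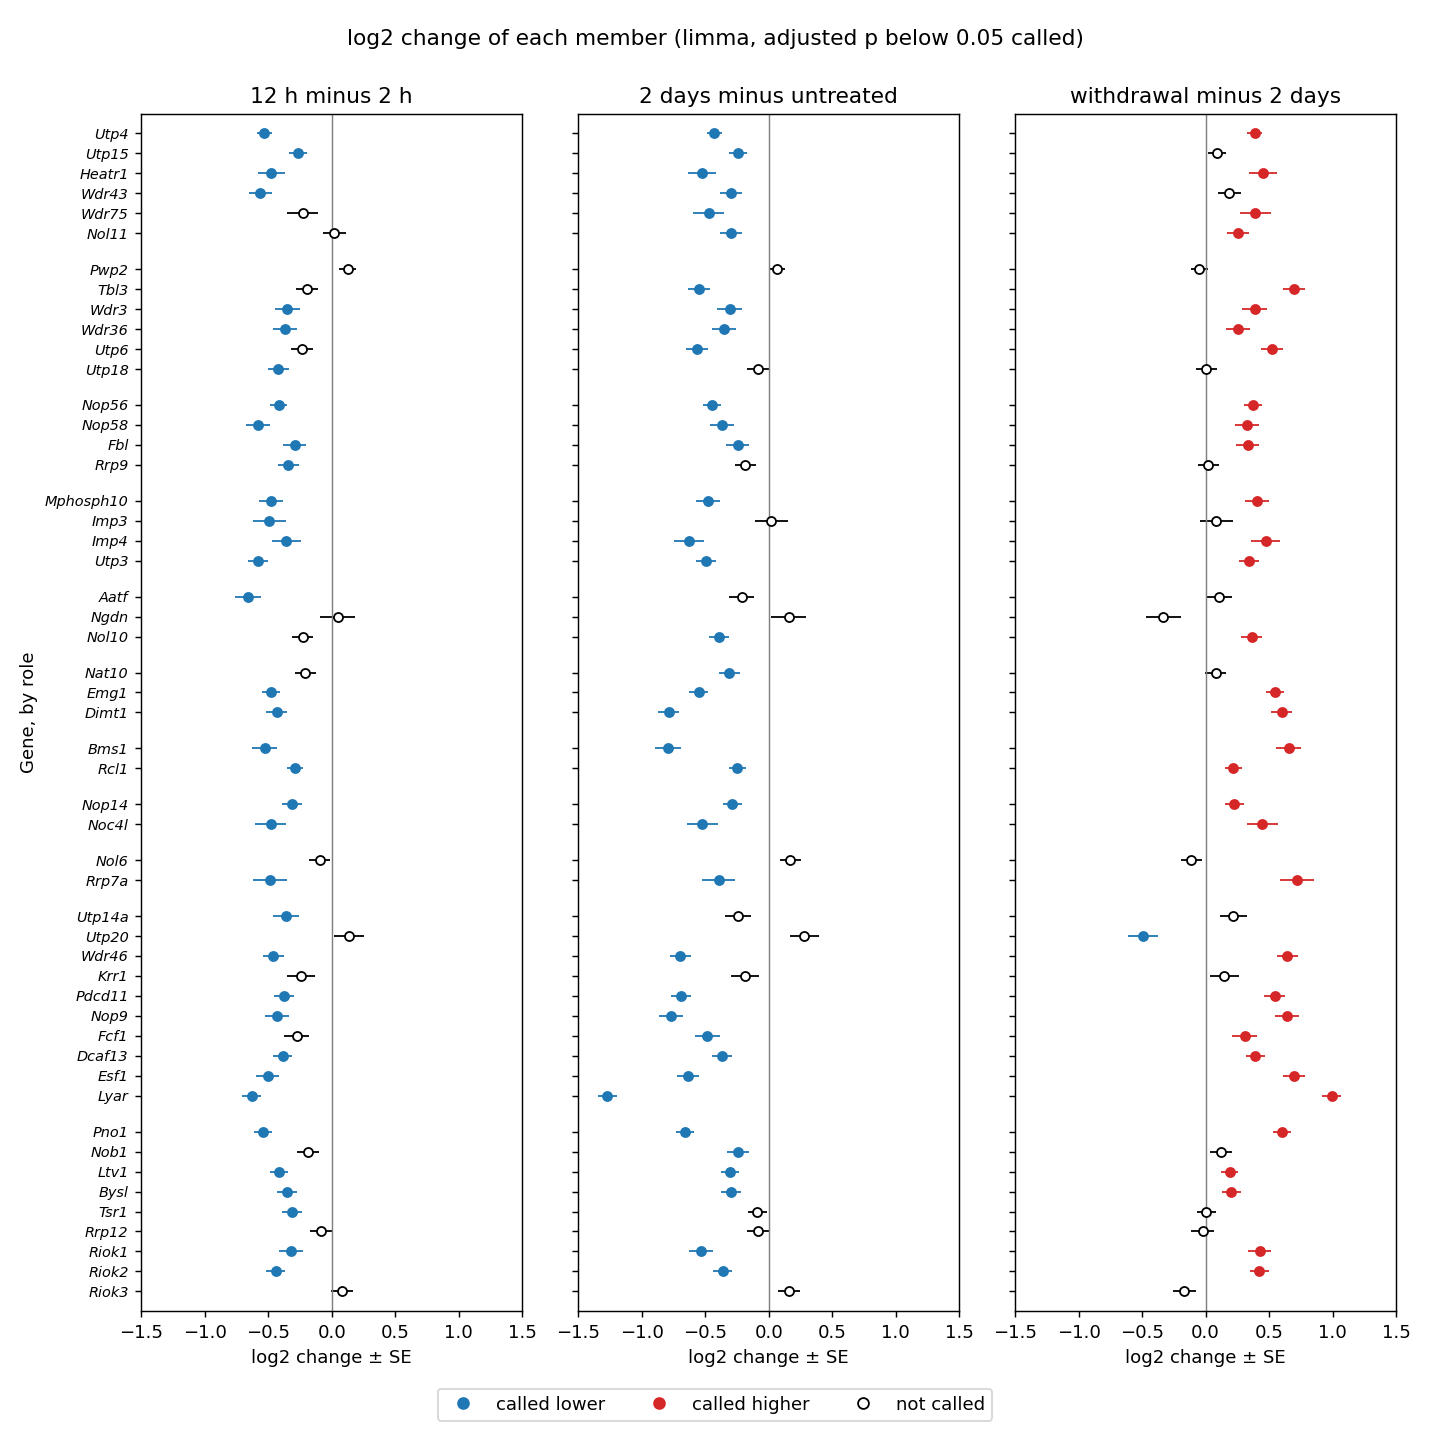
log2 change with its standard error (horizontal axes) of each of the 51 genes, by role, in 3 comparisons; filled blue points were called lower, filled red points higher and open points were not called. Most points lie below 0 at 12 h against 2 h and at 2 days against untreated, and above 0 from 2 days to withdrawal, with Utp20 on the other side in all 3.

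At 1 day 28 were called lower and 1, Pwp2, higher (17.7% and 15.9% of all genes), with a median of -0.26. The largest falls were those of Lyar -0.90, Wdr75 -0.82, Dimt1 -0.59 and Wdr46 -0.57. Of the 29 calls 20 held without each library in turn, and in a fit of the 2 groups alone 4 genes were called. Both 1-day and both 2-day libraries lay below all untreated and withdrawal libraries for 28 of the 51 genes (54.9%, against 18.6% of all tested genes) and above them for Pwp2 and Riok3 (17.1% of all). Scaled to equal totals, which moved the median of all genes to 0.10, 21 were called lower and 4 higher at 1 day (12.0% and 22.1% of all genes).

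Against untreated cells the earlier times gave fewer and mixed calls. At 2 h 8 were called lower and 5 higher (8.45% and 6.75% of all genes), with a median of 0.01. The largest falls were those of Imp3 -0.50, Fbl -0.40, Rrp9 -0.36 and Fcf1 -0.34, and the largest rises those of Esf1 0.39, Riok2 0.38, Wdr3 0.37 and Tsr1 0.35. None of the 13 calls at 2 h held without each library in turn: the count was 4 without the first 2 h library, 0 without the second and 3 without the first untreated library. At 4 h 9 were called lower and 3 higher (10.2% and 8.86%), led by Imp3 -0.72 and Dimt1 -0.48 below and Utp20 0.57 above, and without the first 4 h library 4 were called. At 6 h 17 were called lower and 2, Utp20 and Pwp2, higher (13.4% and 10.9%), led by Imp3 -0.72, Dimt1 -0.57 and Utp3 -0.53, and without the first 6 h library 11 were called. At 12 h 34 were called lower and 3, Utp20, Riok3 and Pwp2, higher (18.3% and 14.8%), with a median of -0.35. Imp3 -0.99, Lyar -0.89, Utp3 -0.81 and Wdr46 -0.75 fell furthest. Most calls at 4 h, and some of those at 6 h and 12 h, did not hold without each library in turn. Scaled to equal totals 9 were lower and 7 higher after 4 h (9.83% and 9.7% of all genes) and 16 lower and 6 higher after 6 h (10.9% and 14.1%). After 12 h 22 were lower and 4 higher on that scale (12.7% and 26.2%), and the median of all genes moved to 0.17.

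**Figure D4:**
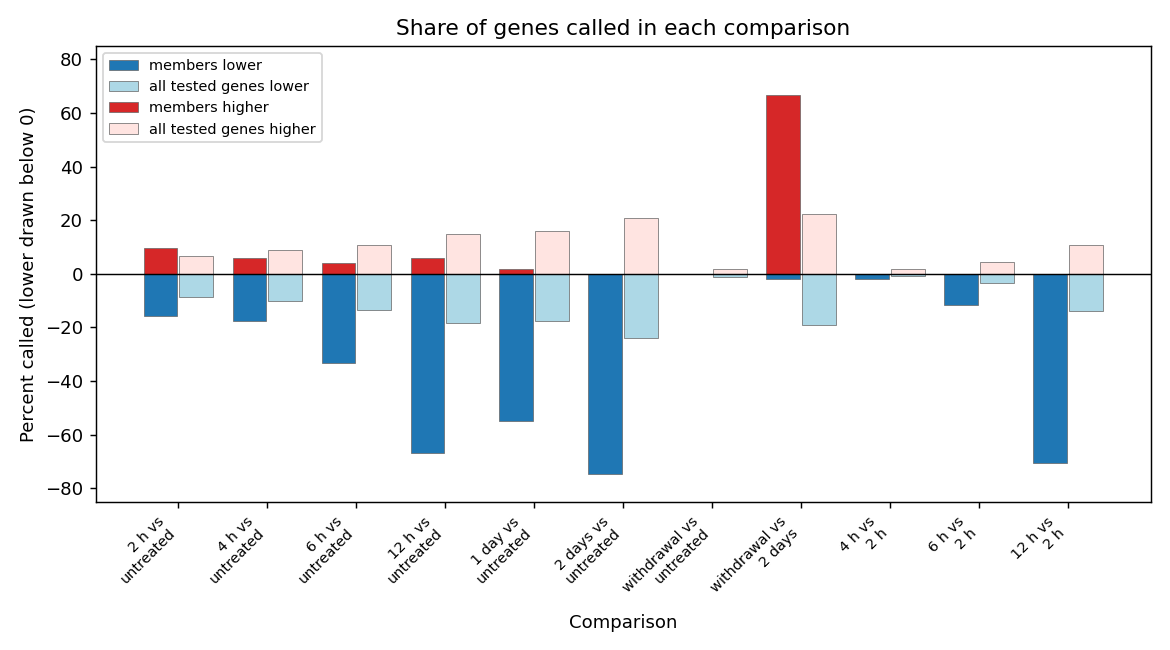
Share of genes called lower (drawn below 0) and higher (above 0) in each comparison, in percent, for the 51 genes (dark bars) and all tested genes (pale bars). The dark bars stay near the pale ones at 2 h and 4 h against untreated and reach 74.5% lower at 2 days, 70.6% lower at 12 h against 2 h and 66.7% higher from 2 days to withdrawal.

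In the early comparisons with untreated cells the change went with transcript length. The Spearman correlation of log2 change with the longest annotated transcript over the 51 genes was 0.48 after 2 h, 0.53 after 4 h, 0.48 after 6 h and 0.47 after 12 h, against 0.30 to 0.33 over all tested genes with an annotation. These are descriptions across genes measured in shared libraries. At 2 h the 12 shortest (up to 2229 bp, Imp3 and Rrp9 among them) had a median of -0.24 with 6 called lower. The 12 longest (4363 bp and over) had a median of 0.06 with none called. Of all tested genes 8.45% were called lower there and 6.75% higher. At 12 h against 2 h the correlation was 0.19, with medians of -0.47 and -0.36 and 9 and 7 called lower (13.7% of all tested genes). At 2 days it was -0.04, with medians of -0.37 and -0.37 and 8 and 9 called lower (23.8% of all tested genes). Shares called were not computed for all genes of such lengths. The part of length in the early changes was not tested.

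**Figure D5:**
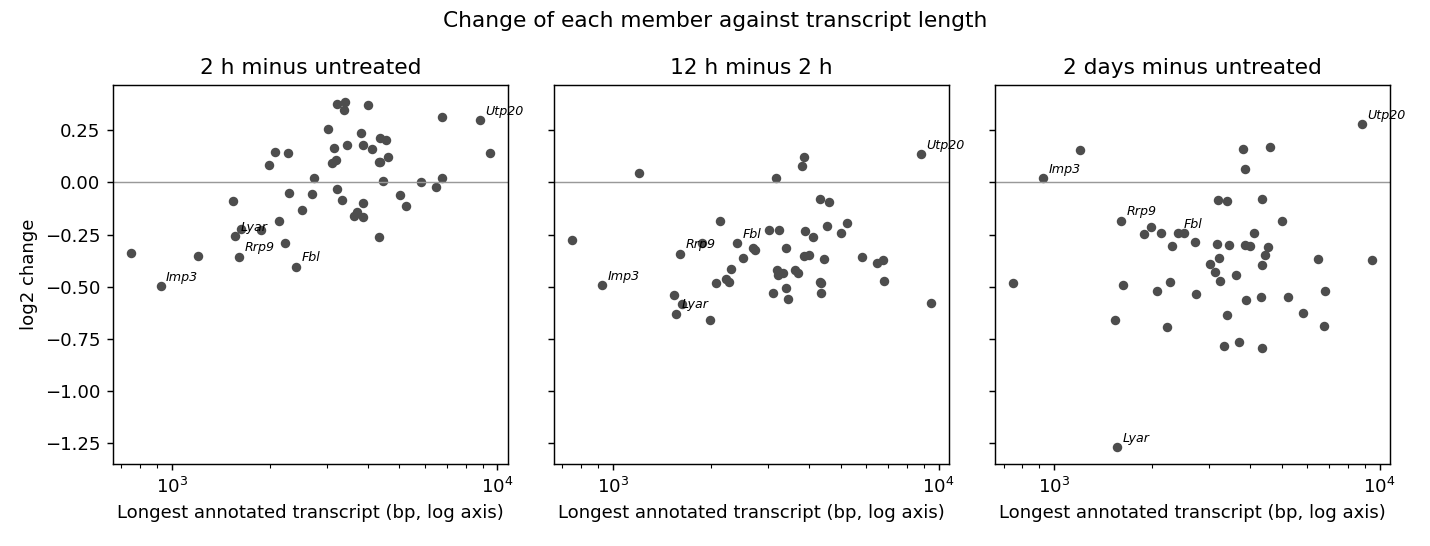
log2 change of the 51 genes (vertical axes) against the length of the longest annotated transcript in bp (horizontal log axes), for 2 h minus untreated, 12 h minus 2 h and 2 days minus untreated; each point is a gene. The points slope upward at 2 h, where the correlation was 0.48, and not at 2 days, where it was -0.04.

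After withdrawal the group means of most factors were nearer to untreated than to 2 days. Few genes of any kind were called between withdrawal and untreated, so a lack of calls among the 51 does not show a full return. None of the 51 was called between withdrawal and untreated by limma (1.07% of all genes were lower and 1.72% higher), 5 had an unadjusted p below 0.05, and without either untreated library 1 was called. The group mean was nearer to untreated than to 2 days for 43 of the 51 genes and for 36 of the 38 called lower at 2 days. The 38 were chosen with the same untreated and 2-day libraries, and neither share was computed over all tested genes. The withdrawal mean was below the untreated mean for 41 of the 51. The median log2 difference was -0.07, against -0.01 over all tested genes. No share over all tested genes is given for this count or that of unadjusted p. Lyar was -0.28 (SE 0.07, limma adjusted p = 0.063), at 82.6% of its untreated mean. Rises from 2 days were largest for Lyar 0.99, Rrp7a 0.72, Tbl3 0.70 and Esf1 0.69. Of the 35 calls 20 held without each library in turn, and without the first withdrawal library 21 were called. Scaled to equal totals, which moved the median of all genes to -0.14, 22 were called higher and 5 lower (15.0% and 27.2% of all genes), and scaled by upper quartiles 28 and 2 (19.2% and 21.9%).

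The lowest of the 8 group means was at 12 h for 22 genes and at 2 days for 20, and the highest was in untreated cells for 19 and at 2 h for 18. Normalized totals were 15.0 M in the 12 h libraries, 14.9 M in those of 2 days and 16.9 M and 16.4 M untreated. Neither these counts nor the correlations below were computed over all tested genes. The Pearson correlation of a gene's log2 values with the mean of the other 50 over the 16 libraries, which share libraries and scaling, had a median of 0.76 and was above 0.8 for 23 genes. Pno1 (0.97), Utp4 (0.96) and Lyar (0.95) were closest to the others. It was below 0 for Ngdn (-0.41), Riok3 (-0.38), Utp20 (-0.18), Pwp2 (-0.04) and Imp3 (-0.001). Ngdn, Nol6, Krr1 and Rrp12 were called in no comparison.

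A list of 17 other small-subunit genes outside the 51, helicases again left out, had 9 called lower and 1 higher at 2 days (23.8% and 21.0% of all tested genes), with a median of -0.39. Called lower were Nolc1 (-1.10) and Tcof1 (-0.80), chaperones of RNA polymerase I and snoRNPs, Diexf (-0.68), Trmt112 (-0.66), the cofactor of rRNA methyltransferases, Utp11l (-0.54), Utp23 (-0.48), Nom1 (-0.48), Dnttip2 (-0.44) and Rbm19 (-0.39). Rrp36 was higher (0.27). From 2 h to 12 h 8 were called lower and 1 higher (13.7% and 10.9% of all genes), and from 2 days to withdrawal 8 higher and 1 lower (22.2% and 19.1%), Rrp36 being the exception both times. The other 7, Nol7, Abt1, Kri1, Wbscr22, Tsr2, Tsr3 and Fam207a, were not called at 2 days.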

How the data were processed

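The deposited signal is a normalized count per gene, scaled per library by the authors, as its name and its median ratios of exactly 1 between libraries show. Trim Galore, STAR, RSEM, DESeq2 and mm10 are named without roles or versions in the submitters' processing notes; sources used here give neither the gene annotation nor a filter. Each value was taken to log2(value + 1), and genes with a mean of at least 10 were tested, 13355 in all. The test was limma 3.58.1 under R 4.3.3 on 16 libraries with 1 mean per group, an intensity trend and 8 residual degrees of freedom, with Benjamini-Hochberg adjustment per comparison. A run on simulated data bounded false calls and required recovery, sign and size only for added changes of 2 log2 units. That is larger than any change of the 51 genes, so the run does not bear on how well changes of their size are recovered. Standard errors of log2 changes had a median of 0.158. Gene positions and exon overlaps are from GENCODE M21 on GRCm38; Riok2 was matched there by symbol, its identifier being absent. Values in every library are given for up to 2 genes per role with the smallest F-test p over the comparisons with untreated and for genes called in opposite directions; up to 4 genes with the largest called changes are named per comparison. The members and lists were chosen with earlier results of these data known. Alternatives were other pseudocounts, filters, scalings, a replicate block, a fit of 2 groups alone and leaving out each library; scaling to equal totals, a fit of the 2 h to 12 h libraries alone and the comparison of 2 days with 1 day were added after the data were seen.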

Additional observations from a re-analysis of the deposited data

Results flagged for a closer look

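Of the 51 genes 4 were called higher than untreated at 2 h and lower at 2 days, as were 1.76% of all tested genes. The 2-day minus 2 h difference was -1.02 (SE 0.09) for Esf1, -0.74 (SE 0.07) for Riok2, -0.68 (SE 0.10) for Wdr3 and -0.65 (SE 0.08) for Nol10. The genes were chosen by those opposite calls, so the sign of the differences follows from the choice and they are given as a description. The comparison crosses between the 2 h to 12 h libraries and the others, and the part of that division in these differences was not tested. None of the 4 calls at 2 h held without each library in turn.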

How the results depend on the processing

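No call of one of the 51 genes changed its sign under any alternative that was run. Of 227 calls, 77 were lost in a fit of the 2 compared groups alone, 65 under scaling to equal totals, 16 under upper quartiles, 7 under the replicate block and 4 without a filter; rescaling by median ratios changed no value. In a fit of the 2 groups alone the number called against untreated was 0 after 2 h, 3 after 4 h, 8 after 6 h and 4 after 1 day (13, 12, 19 and 29 in the fit of all libraries), 4 at 4 h and 21 at 6 h against 2 h (1 and 6), and 0 at 2 days against 1 day (1). Scaling to equal totals gave 2 at 4 h and 21 at 12 h against 2 h (1 and 36), and upper quartiles gave 2 at 4 h. The libraries of 2 h to 12 h alone gave 4 at 4 h and 22 at 6 h against 2 h.

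Leaving out 1 library gave 0 to 15 at 2 h, 4 to 12 at 4 h, 11 to 23 at 6 h, 28 to 33 at 12 h, 22 to 33 at 1 day, 29 to 40 at 2 days and 0 to 1 for withdrawal against untreated. It gave 21 to 28 for withdrawal against 2 days, 0 to 0 at 4 h, 2 to 2 at 6 h and 23 to 28 at 12 h against 2 h, and 0 to 10 at 2 days against 1 day, the highest without the second 1-day library. The 1 library left in a group is then assumed to vary like the others.

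Replicate numbers did not pair the libraries: over 28 pairs of groups the correlation of the replicate differences was -0.06 to 0.07. With replicate as a block the counts against untreated were 12, 13, 20, 37, 28 and 38 from the shortest to the longest time and 0 after withdrawal, 33 from 2 days to withdrawal, and 1, 4 and 36 at 4 h, 6 h and 12 h against 2 h.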
